A study of Mus musculus with 36 samples.

Results

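The genes of fast and slow inhibition by GABA and glycine were followed in 36 RNA sequencing libraries from the dorsal root ganglion (DRG) and the dorsal part of the spinal cord of female mice. The list held 30 genes: subunits of ionotropic GABA receptors and of glycine receptors, a GABA-B receptor subunit, scaffold and adhesion proteins of inhibitory synapses, enzymes and transporters of GABA and glycine, and a pair of chloride cotransporters. Rows of the deposited table were taken by gene name, and genes whose mean stayed under 0.5 CPM (reads of a gene scaled to the size of its library) in every group were left out. This kept 28 of the 30 listed genes, of 55487 genes in the table. Gabrr3 and Gabra6 were left out, with highest group means of 0.143 and 0.0116 CPM. The kept gene nearest to the limit was Gabrd, with a highest group mean of 0.84 CPM.

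The study asked how nerve injury and the knockout of a gene change the transcriptomes of both tissues. Each tissue had 4 libraries of knockout (KO) mice after spared nerve injury (SNI), 5 of naive KO mice, 4 of wild-type (WT) mice after SNI and 5 of naive WT mice. In SNI, branches of the sciatic nerve are cut and another is spared. The sources used here do not give the knockout allele, the strain, the age or the time after injury. For the DRG libraries A2 and A4 the title reads wild type, but the genotype field and the column names read knockout, and these libraries are counted as KO. The labels do not say that the libraries came from separate animals, so p-values measure the spread between these libraries, which may be technical.

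GABA is made by glutamate decarboxylases, loaded together with glycine into synaptic vesicles, and opens pentameric chloride channels on the receiving cell. In the dorsal horn such synapses hold back pain signals, and a chloride exporter keeps the current inhibitory. The cell bodies of the ganglion are almost free of synapses but carry GABA receptors, and they hold much chloride through an importer, so that GABA depolarises them.

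Each library held 21.34 to 27.27 M estimated reads. Markers of inhibitory dorsal horn neurons, 7 genes, summed to 100.1 to 135.8 CPM in cord and to 1.14 to 2.77 CPM in ganglia. Markers of oligodendrocytes, 6 genes, summed to 3060 to 3970 CPM in cord and to 2.1 to 17.56 CPM in ganglia. Markers of sensory neurons, 9 genes, summed to 642 to 1047 CPM in cord and to 3058 to 6122 CPM in ganglia. Both tissues thus carried the markers of their labels. Since these are bulk samples, fewer cells of a type and less RNA per cell cannot be told apart.

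In naive WT mice nearly the whole set was higher in cord than in ganglia. Of the 28 genes, 26 were higher in cord and 0 lower at an edgeR adjusted p under 0.05. Of all 20626 genes tested 76.7% were called, 36.6% higher and 40.1% lower in cord. The median log2 difference was 3.86 over the 28 genes and -0.06 over all genes tested. The limit of 0.5 CPM kept several genes through cord alone, so this count describes the set and is no evidence about it. Gabrd and Slc12a2 were not called.

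The machinery that makes and loads the transmitters was almost absent from the ganglion. Gad2, a glutamate decarboxylase, had 183, 169, 183, 172 and 178 CPM in naive WT cords, against 0.208, 0.080, 0.214, 0.0854 and 0.141 CPM in naive WT ganglia. Slc32a1, the vesicular transporter for GABA and glycine, had 149 to 174 CPM in naive WT cords, against 19 reads in all 5 naive WT ganglia together, 15 of them in library B1. Slc6a5, the glycine transporter of glycinergic axon terminals, had 555 to 610.1 CPM in naive WT cords, against 1 to 35 reads per naive WT ganglion. In ganglia all 3 genes stood near the limit of detection. Gad1, the other glutamate decarboxylase, had 249 to 261 CPM in naive WT cords, against 12 to 31 reads per naive WT ganglion. Slc6a11, the GABA transporter of astrocytes, had 18 to 82 reads per naive WT ganglion.

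The glycine receptor showed the sharpest split within a family. The pore-forming alpha subunits Glra1, Glra2, Glra3 and Glra4 had between 5 and 18 reads each over the 5 naive WT ganglia, while Glra1 alone had 90.7, 93.4, 114, 110.1 and 116 CPM in naive WT cords. The beta subunit Glrb, which ties the receptor to the scaffold gephyrin, had 384, 388, 384, 374 and 407 CPM in naive WT cords, against 175, 178, 193, 189.5 and 181 CPM in naive WT ganglia. Per length of exons, the ratio of Glra1 to Glrb reads scaled to library size and exon length (RPKM) had a median of 0.549 in naive WT cords and of 0.000435 in naive WT ganglia. In naive WT ganglia Glrb had the highest mean of the set on the RPKM scale, at 39.4 ± 1.63 RPKM (SD, n = 5), with few reads of the alpha subunits. Gabbr1, a subunit of the GABA-B receptor, which acts through G proteins, came next there at 32.1 ± 6.45 RPKM, and the ranges of neighbours in that order overlapped for this pair. In the other 3 ganglion groups Gabbr1 came first and Glrb next, with means of 34.3 and 29.7 RPKM in KO SNI, 44.1 and 41.8 RPKM in KO naive and 28.8 and 28.1 RPKM in WT SNI ganglia. In naive WT cords the order was led by Slc6a11 at 112 ± 3.91 RPKM, Abat at 93.7 ± 3.18 RPKM and Glrb at 83.2 ± 2.6 RPKM (SD, n = 5 each).

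The chloride exporter and the chloride importer were distributed differently over the tissues. Slc12a5, the exporter of neurons of the central nervous system, had 549.6, 601, 559, 587 and 556 CPM in naive WT cords, against 1.37, 1.0, 1.79, 0.641 and 0.899 CPM in naive WT ganglia. Slc12a2, the importer, had 236, 227, 239, 232 and 249 CPM in naive WT cords, against 229, 201, 241, 215 and 205 CPM in naive WT ganglia, a log2 difference of 0.12 (SE 0.06, edgeR adjusted p = 0.0801). It was called higher in cord by DESeq2 (adjusted p = 0.0473), by limma (adjusted p = 0.0323) and by edgeR without A2, A7, B1, B8 or C6. The RPKM ratio of exporter to importer had a median of 3.44 in naive WT cords and of 0.00731 in naive WT ganglia. Over all 18 ganglia that ratio was at most 0.0196, and over all 18 cords it lay between 2.88 and 4.07.

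**Figure D1:**
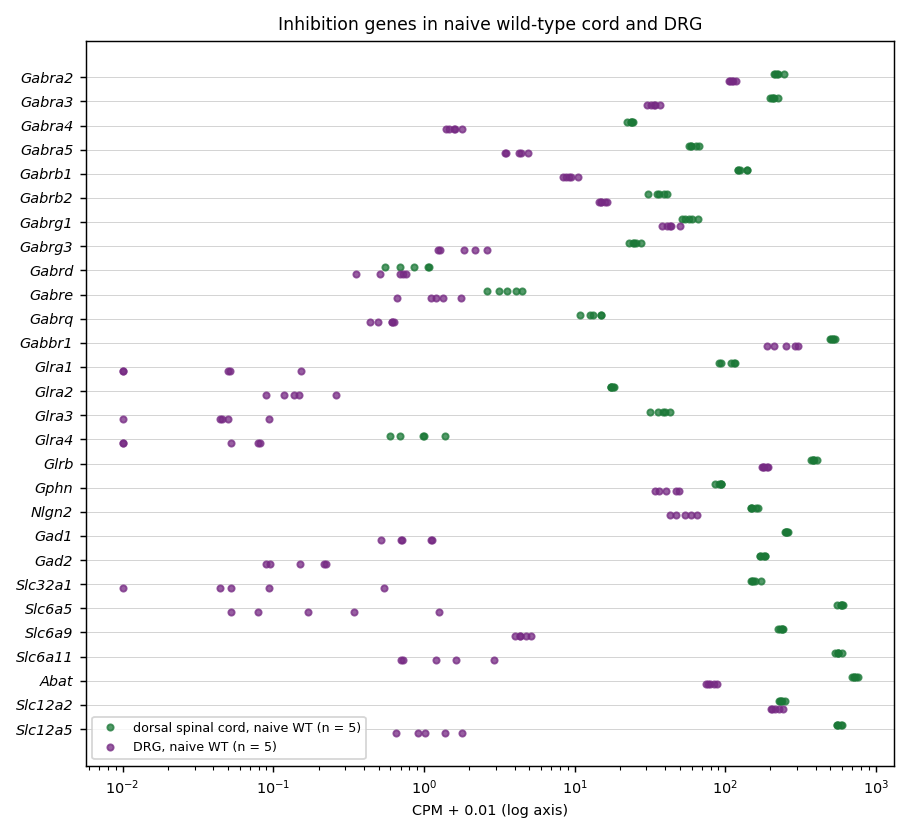
CPM of the 28 genes (a row per gene, log axis, 0.01 added to every value so that 0 can be drawn) in the 5 naive WT cords (green) and the 5 naive WT ganglia (purple), 1 point per library. Glra1 to Glra4, Gad1, Gad2, Slc32a1, Slc6a5, Slc6a11 and Slc12a5 lie far to the left in ganglia, while the points of Slc12a2 and of Gabrd overlap between the tissues.

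Among GABA receptor subunits the ganglion held a short list. Gabra2, an alpha subunit, stood at 14.5 ± 0.63 RPKM in naive WT ganglia, Gabra3 at 8.52 ± 0.64 RPKM, the gamma subunit Gabrg1 at 5.49 ± 0.57 RPKM and the beta subunit Gabrb2 at 2.42 ± 0.12 RPKM (SD, n = 5 each). Gabra4, Gabra5, Gabrb1, Gabrg3, Gabrd, Gabre and Gabrq had group means of 0.103 to 1.38 RPKM in naive WT ganglia. Gabrg1 was close to its level in cord, with 54.1, 52, 60.2, 57.6 and 66.5 CPM in naive WT cords, against 41.3, 43.4, 38.2, 50.5 and 42.7 CPM in naive WT ganglia. The groups did not overlap, and the log2 difference was 0.43 (SE 0.06, edgeR adjusted p = 2.08e-07).

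SNI changed the ionotropic receptor genes of the ganglion in both directions and in both genotypes. Gabrg1 and Gabrb1 rose, while Gabra2, Gabra3, Gabrb2, Gabrd and Glrb fell, each called in KO and in WT. In KO ganglia 2 genes were called higher and 8 lower of 22 tested, where 28.5% of all 19496 genes tested were called, 15.1% higher and 13.3% lower. In WT ganglia 3 were called higher and 6 lower of 22, where 24.9% of all genes were called, 12.6% higher and 12.3% lower. The median log2 change of the 22 genes was -0.27 in KO and -0.24 in WT, against 0.01 and -0.01 over all genes tested in KO and in WT. Glra1, Glra2, Glra3, Glra4, Gad2 and Slc32a1 had too few reads in ganglia to be tested.

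The window around the start of transcription is shown for the 4 receptor genes with the changes described next, Gabrg1 and Gabrb1 (higher after SNI) and Gabrb2 and Gabra3 (lower). Sequences are 250 bases before to 50 after a RefSeq start on GRCm38.p6, 5′ to 3′ on the strand of the gene. Gabrb1, Gabrb2 and Gabra3 have several windows, and that of the most upstream start is shown.
Gabrg1, chr5:70842568-70842867, minus strand: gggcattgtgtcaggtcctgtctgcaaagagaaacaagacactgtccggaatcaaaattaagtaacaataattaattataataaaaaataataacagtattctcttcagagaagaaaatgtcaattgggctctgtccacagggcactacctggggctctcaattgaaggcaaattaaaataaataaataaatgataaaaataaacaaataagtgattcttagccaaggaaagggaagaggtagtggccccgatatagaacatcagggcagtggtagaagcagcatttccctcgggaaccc
Gabrb1, chr5:71657671-71657970, plus strand: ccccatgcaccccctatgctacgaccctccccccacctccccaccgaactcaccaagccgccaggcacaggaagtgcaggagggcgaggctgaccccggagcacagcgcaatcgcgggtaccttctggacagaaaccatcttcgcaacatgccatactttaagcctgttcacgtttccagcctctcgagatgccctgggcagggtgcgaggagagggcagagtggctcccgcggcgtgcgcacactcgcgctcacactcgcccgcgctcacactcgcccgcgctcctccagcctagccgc
Gabrb2, chr11:42420190-42420489, plus strand: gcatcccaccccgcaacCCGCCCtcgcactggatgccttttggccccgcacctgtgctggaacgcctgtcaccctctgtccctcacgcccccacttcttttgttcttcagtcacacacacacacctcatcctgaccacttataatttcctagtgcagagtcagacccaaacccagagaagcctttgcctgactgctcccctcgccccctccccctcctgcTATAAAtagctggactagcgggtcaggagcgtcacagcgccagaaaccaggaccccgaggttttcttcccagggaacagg
Gabra3, chrX:72656870-72657169, minus strand: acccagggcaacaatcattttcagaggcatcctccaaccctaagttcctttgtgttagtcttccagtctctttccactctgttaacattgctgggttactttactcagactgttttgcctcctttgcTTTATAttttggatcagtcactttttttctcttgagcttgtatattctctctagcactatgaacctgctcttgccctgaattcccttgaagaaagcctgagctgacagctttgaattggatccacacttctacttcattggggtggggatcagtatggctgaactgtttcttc
Capitals mark matches on either strand to the core of the TATA box, spelled TATAAA, and to the core of SP1 sites, spelled GGGCGG. The same windows were searched on both strands for the AP-1 motif, spelled TGANTCA, and for the CRE, spelled TGACGTCA. The marked matches do not overlap each other. The Gabrb2 window holds the TATA box and, on the other strand, the SP1 core, and the Gabra3 window holds the TATA box on the other strand. The windows of Gabrg1 and Gabrb1 hold none of the 4 motifs. Of all 32851 mouse promoter windows of this length, 13.6% held the TATA box, 35.7% the SP1 core, 7.81% AP-1 and 1.79% the CRE. Windows of 24 of the 28 genes were searched, and among these AP-1 was in those of Slc12a5 and Slc6a5. No window of Abat, Glra1, Gabrd or Slc12a2 was searched, so the motif count does not cover these genes.

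Gabrg1 had the largest rise among the called genes, in both genotypes. It had 109, 106, 106 and 115 CPM in KO SNI ganglia, against 56.1, 51.7, 51.5, 50.3 and 51.5 CPM in KO naive ganglia, a log2 change of 1.09 (SE 0.06, edgeR adjusted p = 2.49e-10). In WT it had 82.4, 80.3, 80.6 and 77.7 CPM in SNI ganglia, against 41.3, 43.4, 38.2, 50.5 and 42.7 CPM in naive ganglia, a log2 change of 0.90 (SE 0.06, edgeR adjusted p = 5.64e-09). Every SNI library lay above every naive library of its genotype. Gabrb1, a beta subunit, had 11.3, 10.6, 10.3 and 11.1 CPM in KO SNI ganglia, against 6.96, 8.03, 8.0, 8.67 and 6.48 CPM in KO naive ganglia, a log2 change of 0.54 (SE 0.09, edgeR adjusted p = 0.000167). It had 11.1, 10.9, 11.6 and 12.6 CPM in WT SNI ganglia, against 9.23, 10.6, 9.4, 8.33 and 8.71 CPM in WT naive ganglia, a log2 change of 0.33 (SE 0.09, edgeR adjusted p = 0.0104). These groups did not overlap either, although the lowest WT SNI library, at 10.9 CPM, lay close to the highest WT naive library, at 10.6 CPM.

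Gabrb2, the other beta subunit followed here, moved the opposite way. It had 6.37, 6.02, 5.81 and 6.89 CPM in KO SNI ganglia, against 10.2, 11.8, 11, 12.9 and 12.2 CPM in KO naive ganglia, a log2 change of -0.86 (SE 0.08, edgeR adjusted p = 2.05e-07). It had 6.8, 6.8, 6.82 and 7.72 CPM in WT SNI ganglia, against 15, 16.4, 15.1, 14.5 and 16 CPM in WT naive ganglia, a log2 change of -1.12 (SE 0.08, edgeR adjusted p = 5.18e-09). No SNI library reached any naive library. On the RPKM scale the ratio of Gabrb1 to Gabrb2 had a median of 0.812 in KO SNI ganglia and 0.313 in KO naive ganglia, and of 0.749 in WT SNI ganglia and 0.283 in WT naive ganglia. The RPKM ratio of Gabrg1 to Gabrb2 had a median of 14 in KO SNI ganglia and 3.54 in KO naive ganglia, and of 9.54 in WT SNI ganglia and 2.16 in WT naive ganglia. These ratios describe the 4 groups and were not tested.

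Of the alpha subunits, Gabra2 and Gabra3 fell in both genotypes. Gabra3 had 15.3, 16.3, 16.6 and 18.9 CPM in KO SNI ganglia, against 22.6, 24.1, 22.4, 21.2 and 22.7 CPM in KO naive ganglia, a log2 change of -0.40 (SE 0.07, edgeR adjusted p = 0.000431). It had 19.6, 19.4, 22.5 and 21.5 CPM in WT SNI ganglia, against 36.8, 34.5, 33.6, 32.2 and 30.1 CPM in WT naive ganglia, a log2 change of -0.68 (SE 0.07, edgeR adjusted p = 9.65e-07). Gabra2, the alpha subunit with the most reads here, had 101, 102, 99 and 94.4 CPM in KO SNI ganglia, against 118, 125, 128, 127 and 126 CPM in KO naive ganglia, a log2 change of -0.30 (SE 0.06, edgeR adjusted p = 0.00139). It had 97.6, 76.9, 96 and 91 CPM in WT SNI ganglia, against 112, 106, 113, 118 and 107 CPM in WT naive ganglia, a log2 change of -0.29 (SE 0.06, edgeR adjusted p = 0.00219). For both genes the SNI and naive groups did not overlap in either genotype. Gabra4 had 1.72, 1.13, 0.76 and 1.25 CPM in KO SNI ganglia, against 1.88, 2.48, 1.85, 2.12 and 1.64 CPM in KO naive ganglia, and was called lower there, with a log2 change of -0.68 (SE 0.19, edgeR adjusted p = 0.011). That call was lost without A2 and A4 (edgeR adjusted p = 0.059), and the WT change of -0.44 (SE 0.19, edgeR adjusted p = 0.109) was not called. Gabra5 had log2 changes of 0.23 in KO and 0.36 in WT (SE 0.18 each, edgeR adjusted p = 0.376 and 0.17), neither called.

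Gabrd, a subunit of receptors outside synapses, had few reads. It had 1 read over the 4 KO SNI ganglia, against 11 over the 5 KO naive ganglia, and was called lower, but no fold is given at this depth. That call was lost in 6 of 19 alternatives, with an edgeR adjusted p up to 0.0899. It had 13 reads over the 4 WT SNI ganglia, against 76 over the 5 WT naive ganglia, a log2 change of -2.12 (SE 0.42, edgeR adjusted p = 0.000851). The WT groups did not overlap, with 1 to 4 reads per SNI library and 10 to 18 per naive library.

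Glrb fell by a like amount in both genotypes. It had 144, 129, 137 and 144 CPM in KO SNI ganglia, against 199, 191, 199, 193 and 191 CPM in KO naive ganglia, a log2 change of -0.46 (SE 0.05, edgeR adjusted p = 1.83e-06). It had 136, 125, 138 and 125 CPM in WT SNI ganglia, against 175, 178, 193, 189.5 and 181 CPM in WT naive ganglia, a log2 change of -0.48 (SE 0.05, edgeR adjusted p = 1.3e-06). The SNI and naive groups did not overlap. Gphn, the scaffold gephyrin, which also serves in molybdenum cofactor synthesis, had 39.1, 41.3, 36.2 and 36.3 CPM in KO SNI ganglia, against 53.8, 47.6, 50.8, 52.9 and 52.4 CPM in KO naive ganglia, a log2 change of -0.39 (SE 0.10, edgeR adjusted p = 0.0051) with no overlap. In WT its change was -0.25 (SE 0.10, edgeR adjusted p = 0.073), which was not called. Without A3 or without C1 Gphn was called lower in WT (edgeR adjusted p = 0.0423 and 0.0186).

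Nlgn2, an adhesion protein of the receiving side of inhibitory synapses, rose in WT. It had 94.8, 65.2, 81 and 60.6 CPM in WT SNI ganglia, against 54.2, 43.2, 65.4, 59.4 and 47.2 CPM in WT naive ganglia, a log2 change of 0.50 (SE 0.13, edgeR adjusted p = 0.00779), and the groups overlapped. In KO the change of 0.19 (SE 0.13, edgeR adjusted p = 0.293) was not called. Abat, the enzyme that breaks down GABA, had 73.5, 76.6, 75.9 and 72.7 CPM in KO SNI ganglia, against 90.7, 89.9, 88.4, 90.7 and 92.7 CPM in KO naive ganglia, a log2 change of -0.24 (SE 0.05, edgeR adjusted p = 0.00201), and in WT -0.11 (SE 0.05, edgeR adjusted p = 0.135). The chloride importer Slc12a2 had 209, 159, 203 and 168 CPM in WT SNI ganglia, against 229, 201, 241, 215 and 205 CPM in WT naive ganglia. Its WT log2 change of -0.23 (SE 0.08, edgeR adjusted p = 0.0392) was lost in 12 of 24 alternatives, with an adjusted p of 0.156 without E3 and 0.146 without F3. The low values of Slc12a2 in WT SNI ganglia were those of E3 and F3. The KO change of Slc12a2 was -0.11 (SE 0.08, edgeR adjusted p = 0.33).

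Neighbours in the genome did not all move the same way. On GRCm38, per GENCODE M21, Gabrg1 (chr5:70751047-70842617), Gabra2 (chr5:70957597-71095849), Gabra4 (chr5:71569749-71658308) and Gabrb1 (chr5:71658113-72149037) lie side by side on chromosome 5. The outer genes Gabrg1 and Gabrb1 rose after SNI, while Gabra2 between them fell in both genotypes and Gabra4 fell in KO. Gabrb2 lies on chromosome 11 (chr11:42419757-42629028) beside Gabra6, which was not detected above 1 read in any ganglion. Gabra3 lies on the X chromosome (chrX:72432681-72656848) between Gabre and Gabrq, neither of which was called after SNI.

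The remaining tested genes were not called after SNI in ganglia of either genotype. Their log2 changes in KO ran between -0.96 for Slc6a11 and 1.78 for Slc6a5, and in WT between -0.74 for Gabrq and 0.79 for Slc6a5. The value of Slc6a5 in KO rested on library F2, with 89 of the 141 reads of its group. Slc6a5 was called higher in KO under 3 alternatives, without A2 and A4, without A4 and without B1 (edgeR adjusted p = 0.0312, 0.0336 and 0.0319). Gabbr1 had 287, 278, 263 and 239 CPM in KO SNI ganglia, against 375, 306, 334, 348 and 350.3 CPM in KO naive ganglia, with no overlap. Its KO log2 change of -0.33 (SE 0.17, edgeR adjusted p = 0.166) was called with only the groups compared in the fit (edgeR adjusted p = 0.00081). Slc6a11 was called lower in KO under 7 of the alternatives, with a log2 change of -0.97 by DESeq2 (adjusted p = 0.039). Gad2 was left out of the test by the filter on low counts. Without that filter it was called higher in WT, with a log2 change of 1.56 (edgeR adjusted p = 0.0197), at 5 to 17 reads per WT SNI ganglion and 2 to 6 per WT naive ganglion. With the filter kept, Gad2 passed it and was called higher in WT without A2 and A4, or without E1, E4, F2, F3 or F4. Its edgeR adjusted p was 0.0176 without A2 and A4 and 0.00472 without E1. The macrophage and microglia markers rose in the same comparisons, 7 of 7 in each genotype, to a sum of 236.8 to 296.3 CPM in KO SNI ganglia, against 73.98 to 118.9 CPM in KO naive ganglia. In WT their sum was 264.7 to 437.9 CPM in SNI ganglia and 101.6 to 174.6 CPM in naive ganglia. Of 9 sensory neuron markers, 7 fell in KO and 4 in WT, and their sum was 3579 to 4318 CPM in KO SNI ganglia, against 5197 to 6122 CPM in KO naive ganglia. In WT that sum was 3058 to 4305 CPM in SNI ganglia and 3852 to 5217 CPM in naive ganglia. Of 8 general neuron markers, 2 rose and 3 fell in KO, and 2 rose and 2 fell in WT. Their sum was 8042 to 8995 CPM in KO SNI ganglia, against 6476 to 7323 CPM in KO naive ganglia, and 6923 to 8815 CPM in WT SNI ganglia, against 4991 to 6430 CPM in WT naive ganglia. The part of these cell markers in the changes of the receptor genes was not tested. Schwann and satellite glia markers had 0 of 6 called in either genotype.

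**Figure D2:**
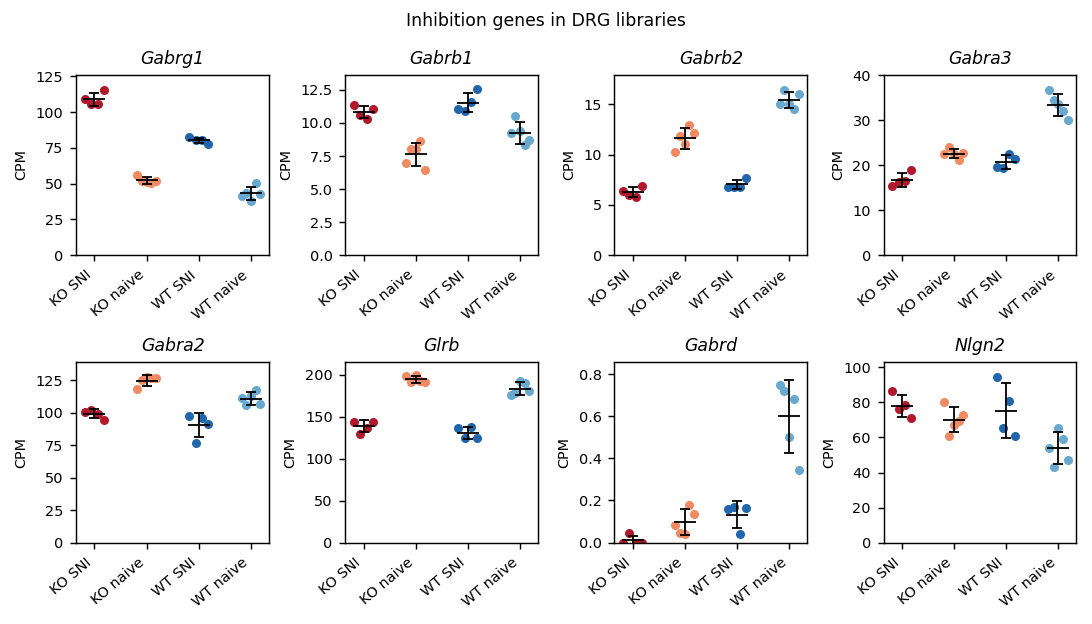
CPM in each DRG library for 8 genes, with groups in the order KO SNI (n = 4), KO naive (n = 5), WT SNI (n = 4) and WT naive (n = 5). Bars are the mean and SD. Gabrg1 and Gabrb1 lie higher in both SNI groups, and Gabrb2, Gabra3, Gabra2 and Glrb lower, than in the naive group of the same genotype.

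**Figure D3:**
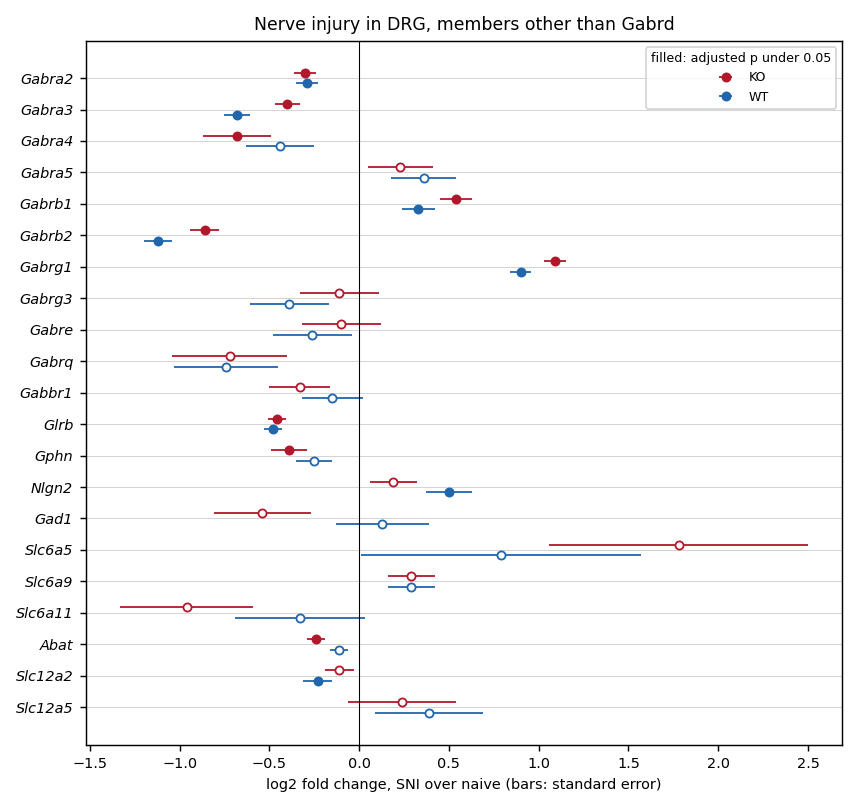
Log2 fold change of SNI over naive ganglia for the 21 tested genes other than Gabrd in KO (red) and WT (blue), with standard errors. Filled points have an edgeR adjusted p under 0.05. Gabrg1 lies furthest to the right of the filled points and Gabrb2 furthest to the left, in both genotypes.

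Whether the genotypes differed in these injury responses was asked by the interaction of genotype and injury, and no gene of the set was called. In ganglia 0 of 22 were called by edgeR, by DESeq2 and by limma, where 0.0256% of all genes tested were called by edgeR, 0.0205% with a higher and 0.00513% with a lower response in KO. At an unadjusted edgeR p under 0.05 there were 3 of 22, where 5.95% of all genes tested passed. These 3 were Gabra3, Gabrb2 and Gabrg1, with KO minus WT differences in log2 change of 0.28, 0.27 and 0.19 (unadjusted p = 0.0118, 0.0284 and 0.046, edgeR adjusted p = 0.785, 0.835 and 0.835). In cord 0 of 28 were called by any of these tools, where 0% of all genes were called by edgeR. At an unadjusted edgeR p under 0.05 there were 2 of 28, where 6.1% of all genes passed, a share near that of the set. These 2 were Gabra5 and Gad1, with differences of 0.20 and -0.09 (unadjusted p = 0.0105 and 0.0488, edgeR adjusted p = 0.737 and 0.814). A gene called in KO or WT alone is therefore not shown to respond differently in them.

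In naive ganglia the genotype itself went with changes of several receptor subunits. KO ganglia had more Gabra5, Gabrg1, Gabbr1, Gphn, Nlgn2 and Abat and less Gabra3, Gabrb1, Gabrb2 and Gabrd than WT ganglia. These are 6 genes higher and 4 lower of 22 tested, where 28.2% of all genes tested were called, 12.8% higher and 15.4% lower. The median log2 difference was 0.20 over the 22 genes and -0.02 over all genes. Leaving out A2 and A4 left 4 calls, leaving out A2 or C2 alone left 4, C1 5 and A3 3. The share of all genes called in these fits is not given here. Gabra3, Gabrb2 and Gabrg1 were called in all 25 alternatives, and Gabrd in all 20 that tested it.

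Of the 4 genes lower in KO, Gabra3, Gabrd and Gabrb2 had smaller adjusted p-values than Gabrb1. Gabra3 had 22.6, 24.1, 22.4, 21.2 and 22.7 CPM in KO naive ganglia, against 36.8, 34.5, 33.6, 32.2 and 30.1 CPM in WT naive ganglia, a log2 difference of -0.58 (SE 0.07, edgeR adjusted p = 1.17e-05). Gabrb2 had 10.2, 11.8, 11, 12.9 and 12.2 CPM in KO naive ganglia, against 15, 16.4, 15.1, 14.5 and 16 CPM in WT naive ganglia, a log2 difference of -0.42 (SE 0.07, edgeR adjusted p = 0.000667). Neither pair of groups overlapped. Gabrd had 11 reads over the 5 KO naive ganglia, against 76 over the 5 WT naive ganglia, a log2 difference of -2.60 (SE 0.42, edgeR adjusted p = 0.000388), with 1 to 4 reads per KO library and 10 to 18 per WT library. Gabrg1 had 56.1, 51.7, 51.5, 50.3 and 51.5 CPM in KO naive ganglia, against 41.3, 43.4, 38.2, 50.5 and 42.7 CPM in WT naive ganglia, a log2 difference of 0.25 (SE 0.06, edgeR adjusted p = 0.00764). These groups overlapped through WT library B3.

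The other differences were smaller or lay nearer to the threshold. Gabra5, an alpha subunit, had 6.39, 5.46, 6.39, 5.82 and 6.34 CPM in KO naive ganglia, against 4.28, 3.44, 4.93, 4.44 and 3.49 CPM in WT naive ganglia, a log2 difference of 0.54 (SE 0.17, edgeR adjusted p = 0.0277) with no overlap. Gabrb1 had 6.96, 8.03, 8.0, 8.67 and 6.48 CPM in KO naive ganglia, against 9.23, 10.6, 9.4, 8.33 and 8.71 CPM in WT naive ganglia, a log2 difference of -0.30 (SE 0.09, edgeR adjusted p = 0.0188). Gabbr1 had 375, 306, 334, 348 and 350.3 CPM in KO naive ganglia, against 253, 210.2, 306, 289.9 and 189 CPM in WT naive ganglia, a log2 difference of 0.44 (SE 0.16, edgeR adjusted p = 0.0471). The WT libraries of Gabbr1 were widely spread and those of KO were not, and the groups touched in B1 and A4. Gphn differed by 0.29 (SE 0.09, edgeR adjusted p = 0.0281), Nlgn2 by 0.36 (SE 0.12, edgeR adjusted p = 0.036) and Abat by 0.15 (SE 0.05, edgeR adjusted p = 0.0349). For Abat the groups did not overlap, with 88.4 to 92.7 CPM in KO naive ganglia, against 74.7 to 88.0 CPM in WT naive ganglia. Calls were lost in 9 of 25 alternatives for Gabbr1, 7 for Nlgn2, 6 for Abat, 5 for Gabra5 and for Gphn and 4 for Gabrb1, with adjusted p-values up to 0.127. Gabra2 was not called, at 0.15 (SE 0.06, edgeR adjusted p = 0.0613), but was called higher in 11 alternatives.

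Blood markers moved with this comparison. All 5 were called lower in KO, and their sum was 188.7 to 599.2 CPM in KO naive ganglia, against 720.7 to 3436 CPM in WT naive ganglia. The library with the highest blood sum, WT C1, had the least Gabbr1 of its group. Of 8 general neuron markers 3 were called higher in KO, and their sum was 6476 to 7323 CPM in KO naive ganglia, against 4991 to 6430 CPM in WT naive ganglia. Sensory neuron markers had 3 of 9 called higher and summed to 5197 to 6122 CPM in KO naive ganglia, against 3852 to 5217 CPM in WT naive ganglia. The part of blood and of neuronal content in the genotype differences was not tested.

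After SNI fewer genes separated the genotypes in ganglia. Of 22 genes 1 was called higher and 2 lower in KO, where 5.1% of all genes tested were called, 2.39% higher and 2.71% lower. The median log2 difference was 0.09 over the 22 genes and 0.01 over all genes. Gabrg1 had 109, 106, 106 and 115 CPM in KO SNI ganglia, against 82.4, 80.3, 80.6 and 77.7 CPM in WT SNI ganglia, a log2 difference of 0.45 (SE 0.07, edgeR adjusted p = 0.000329). Gabra3 had 15.3, 16.3, 16.6 and 18.9 CPM in KO SNI ganglia, against 19.6, 19.4, 22.5 and 21.5 CPM in WT SNI ganglia, a log2 difference of -0.30 (SE 0.08, edgeR adjusted p = 0.0286). Neither pair of groups overlapped, and both genes had differed the same way in naive ganglia, from other libraries. Gabrd had 1 read over the 4 KO SNI ganglia, against 13 over the 4 WT SNI ganglia, and was called lower. Without E2, F2 or F3, or with only these 2 groups in the fit, 1 call was left, that of Gabrg1. Gabra3 reached an edgeR adjusted p of at most 0.0958 in the alternatives that lost it, and Gabrd, whose call was lost in 12 of 20 alternatives, at most 0.12.

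In cord SNI moved few genes of the set, and every called change was a small fall. In KO 0 genes were called higher and 1 lower of 28, where 4.42% of all 18843 genes tested were called, 3.79% higher and 0.626% lower. In WT 0 were called higher and 4 lower of 28, where 2.88% of all genes were called, 2.61% higher and 0.271% lower. The median log2 change of the 28 genes was -0.06 in KO and -0.04 in WT, against -0.01 over all genes in both.

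Gad1 fell in both genotypes. It had 216, 223, 228 and 223 CPM in KO SNI cords, against 265, 263, 265, 263 and 256 CPM in KO naive cords, a log2 change of -0.24 (SE 0.03, edgeR adjusted p = 7.89e-06). It had 219, 227, 235 and 240.0 CPM in WT SNI cords, against 261, 254, 249, 256 and 254 CPM in WT naive cords, a log2 change of -0.15 (SE 0.03, edgeR adjusted p = 0.00418). No SNI library reached a naive library of its genotype, and both calls held in all 23 alternatives. The partner enzyme Gad2 had 172, 178, 178 and 169.6 CPM in KO SNI cords, against 188, 179, 187, 187 and 173 CPM in KO naive cords, a log2 change of -0.07 (SE 0.04, edgeR adjusted p = 0.377). In WT the change of Gad2 was -0.05 (SE 0.04, edgeR adjusted p = 0.701). Gad2 was thus not called in either genotype, and whether Gad1 and Gad2 differed in their response was not tested.

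The other 3 calls in WT were small. Glrb had 368, 318, 343 and 357 CPM in WT SNI cords, against 384, 388, 384, 374 and 407 CPM in WT naive cords, a log2 change of -0.16 (SE 0.04, edgeR adjusted p = 0.0192). Slc6a9, the glycine transporter found mostly on glia, had 211, 215, 217 and 203 CPM in WT SNI cords, against 231, 241, 237, 237 and 226 CPM in WT naive cords, a log2 change of -0.15 (SE 0.04, edgeR adjusted p = 0.0309). Its exons overlap those of Ccdc24 on the other strand over 1258 bases, with at most 3.8 CPM of Ccdc24 in any library, and the sources used here do not say whether counting used strand. Slc12a5 had 474, 527, 537 and 515 CPM in WT SNI cords, against 549.6, 601, 559, 587 and 556 CPM in WT naive cords, a log2 change of -0.15 (SE 0.04, edgeR adjusted p = 0.0404). For none of the 3 did the groups overlap, although Slc12a5 reached 537 CPM in a WT SNI cord, against 550 CPM in the lowest WT naive cord. In KO the changes of Glrb, Slc6a9 and Slc12a5 were -0.05, -0.06 and -0.06 on the log2 scale, not called.

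The WT count depended on single libraries. Without A7, B5, C5 or E5, or with only the 2 groups compared in the fit, 2 calls were left, and without E7 1 was left, while DESeq2 called 8 genes and limma 7, all lower. The share of all genes called under these alternatives is not given here. Slc12a5 lost its call in 16 of 23 alternatives, Slc6a9 in 7 and Glrb in 4, with edgeR adjusted p-values up to 0.224, 0.146 and 0.127. Close to the threshold in WT were Gphn at -0.14 (SE 0.04, edgeR adjusted p = 0.0501) and Gabra5 at -0.18 (SE 0.05, edgeR adjusted p = 0.0654). Slc32a1 changed by -0.19 (SE 0.06, edgeR adjusted p = 0.102) and Glra1 by -0.24 (SE 0.07, edgeR adjusted p = 0.113), neither called. DESeq2 called Gphn, Gabra5, Slc32a1 and Glra1 lower, with adjusted p = 0.0461 for Slc32a1 and 0.0317 for Glra1. Limma called Gphn, Gabra5 and Glra1 lower, with adjusted p = 0.0444 for Glra1. By edgeR Slc32a1 was also called without B6 or F5, and Glra1 without A5.

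Glial markers rose in the same cords. All 7 microglia and macrophage markers were called higher, with sums of 452.6 to 476.6 CPM in KO SNI cords, against 182.6 to 211.8 CPM in KO naive cords. In WT their sum was 443.1 to 489 CPM in SNI cords and 203.9 to 233.2 CPM in naive cords. Of 6 astrocyte markers Gfap and Aqp4 rose in each genotype. Markers of inhibitory dorsal horn neurons had 1 of 7 called, the opioid gene Pdyn, which rose by 0.86 (SE 0.07, edgeR adjusted p = 1.21e-08) in KO and by 0.54 (SE 0.07, edgeR adjusted p = 2.6e-05) in WT. General neuron markers summed to 5707 to 6010 CPM in KO SNI cords, against 5512 to 5841 CPM in KO naive cords. In WT they summed to 5492 to 5960 CPM in SNI cords and 5582 to 6338 CPM in naive cords. Motor neuron markers were uneven in WT, with 28.69 to 98.3 CPM in SNI cords, lowest in F5, and 64.03 to 115.5 CPM in naive cords. The part of these cell markers in the falls was not tested.

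**Figure D4:**
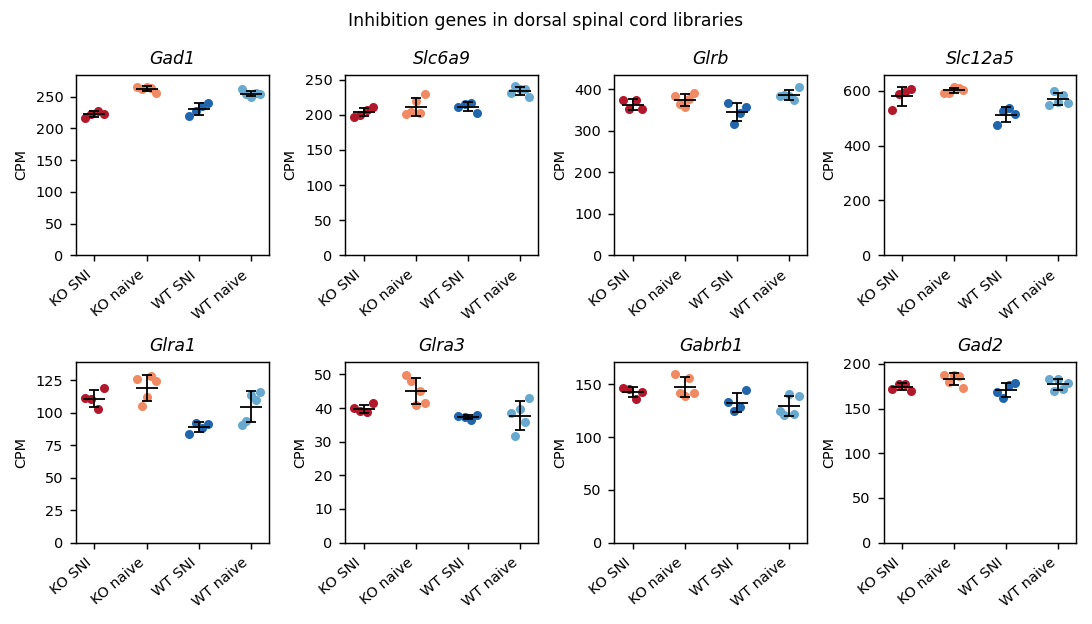
CPM in each cord library for 8 genes, with groups in the order KO SNI (n = 4), KO naive (n = 5), WT SNI (n = 4) and WT naive (n = 5). Bars are the mean and SD. Gad1 lies lower in both SNI groups than in the naive group of the same genotype, and Glra1 and Slc12a5 are lowest in WT SNI cords.

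In naive cord some genes of the set were called between KO and WT mice, with small differences. Gabra4, Gabrb1, Gabrb2, Gabrg3 and Glra3 were higher and Slc32a1 and Slc6a9 lower in KO, 5 and 2 of 28. They were 25% of the 28 genes, not far from the 19.7% of all genes tested that were called, 9.79% higher and 9.94% lower. The median log2 difference was 0.00 over the 28 genes and -0.01 over all genes. For all 7 the KO and WT libraries overlapped. Some receptor subunits were called only under alternatives, in both directions. Gabra2 was called lower in KO by limma and with the letter of the title as a term, and Gabra5 by limma and without B7. Glra1 was called higher by DESeq2, with the letter as a term, and without A8, B5 or C5.

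Glra3, an alpha subunit of the glycine receptor that is linked in mice to pain sensitisation by prostaglandin, had 49.8, 48.1, 41, 45.1 and 41.5 CPM in KO naive cords, against 38.4, 31.6, 39.9, 36 and 42.9 CPM in WT naive cords, a log2 difference of 0.26 (SE 0.06, edgeR adjusted p = 0.00608). Gabrb2 had 48, 43.9, 36.2, 45.8 and 45.7 CPM in KO naive cords, against 35.4, 30.9, 39.5, 36.1 and 40.9 CPM in WT naive cords, a log2 difference of 0.26 (SE 0.07, edgeR adjusted p = 0.0151). Gabrb1 had 159.6, 142, 139, 156 and 142 CPM in KO naive cords, against 125, 121, 141, 122 and 139 CPM in WT naive cords, a log2 difference of 0.19 (SE 0.05, edgeR adjusted p = 0.00939). In ganglia both beta subunits had been lower in KO, but whether the genotype difference differs between tissues was not tested. Gabra4 had 26.8, 29.5, 24, 28 and 27.2 CPM in KO naive cords, against 23.9, 22.4, 24.4, 24 and 23.7 CPM in WT naive cords, a log2 difference of 0.19 (SE 0.05, edgeR adjusted p = 0.0119). Gabra4 and Gabrb1 lie head to head on chromosome 5 and share 28 bases of exon on opposite strands. Gabrg3, a gamma subunit, differed by 0.17 (SE 0.05, edgeR adjusted p = 0.0252), with 27.4 to 29.2 CPM in KO naive cords, against 22.8 to 27.8 CPM in WT naive cords. It lost its call in 3 of 24 alternatives, with an adjusted p up to 0.0837.

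The 2 lower genes were transporters. Slc6a9 had 201, 205, 219.6, 203 and 229 CPM in KO naive cords, against 231, 241, 237, 237 and 226 CPM in WT naive cords, a log2 difference of -0.15 (SE 0.04, edgeR adjusted p = 0.00627). Slc32a1 had 136, 136, 158, 133 and 141 CPM in KO naive cords, against 159, 174, 153, 149 and 152 CPM in WT naive cords, a log2 difference of -0.16 (SE 0.06, edgeR adjusted p = 0.046). The KO library B6 lay among the WT libraries, and the call of Slc32a1 was lost in 11 of 24 alternatives, with an adjusted p up to 0.136. Its exons overlap the antisense gene Gm14205 over 697 bases, which had at most 0.158 CPM in any library. The markers of inhibitory dorsal horn neurons had 0 of 7 called, with sums of 102.8 to 113.5 CPM in KO naive cords, against 100.1 to 110.2 CPM in WT naive cords. Blood markers had 4 of 5 called lower, with 141.3 to 177.4 CPM in KO naive cords, against 175.1 to 496.1 CPM in WT naive cords, and their part was not tested.

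After SNI 2 genes of the set, Glra1 and Slc12a5, were called higher and 0 lower in KO than in WT cords. They were 7.14% of the 28 genes, near the 6.26% of all genes tested that were called, 2.95% higher and 3.31% lower. The count is thus no result about the set. None of the 7 genes called in naive cords was called here. Glra1, the main alpha subunit of the adult glycine receptor, had 111, 110.2, 103 and 119 CPM in KO SNI cords, against 83.2, 92.4, 88.6 and 91.1 CPM in WT SNI cords, a log2 difference of 0.32 (SE 0.08, edgeR adjusted p = 0.0187) with no overlap. Slc12a5 had 529, 590.4, 596 and 606 CPM in KO SNI cords, against 474, 527, 537 and 515 CPM in WT SNI cords, a log2 difference of 0.17 (SE 0.04, edgeR adjusted p = 0.0163), with an overlap through KO library E6. In naive cords the difference was 0.19 (SE 0.07, edgeR adjusted p = 0.0658) for Glra1 and 0.08 (SE 0.04, edgeR adjusted p = 0.179) for Slc12a5. Without E5 or F8 0 calls were left, and without F5, or without the filter on low counts, 1 was left. Of the motor neuron markers 0 of 4 were called, with sums of 70.53 to 112.1 CPM in KO SNI cords, against 28.69 to 98.3 CPM in WT SNI cords, and their part was not tested.

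**Figure D5:**
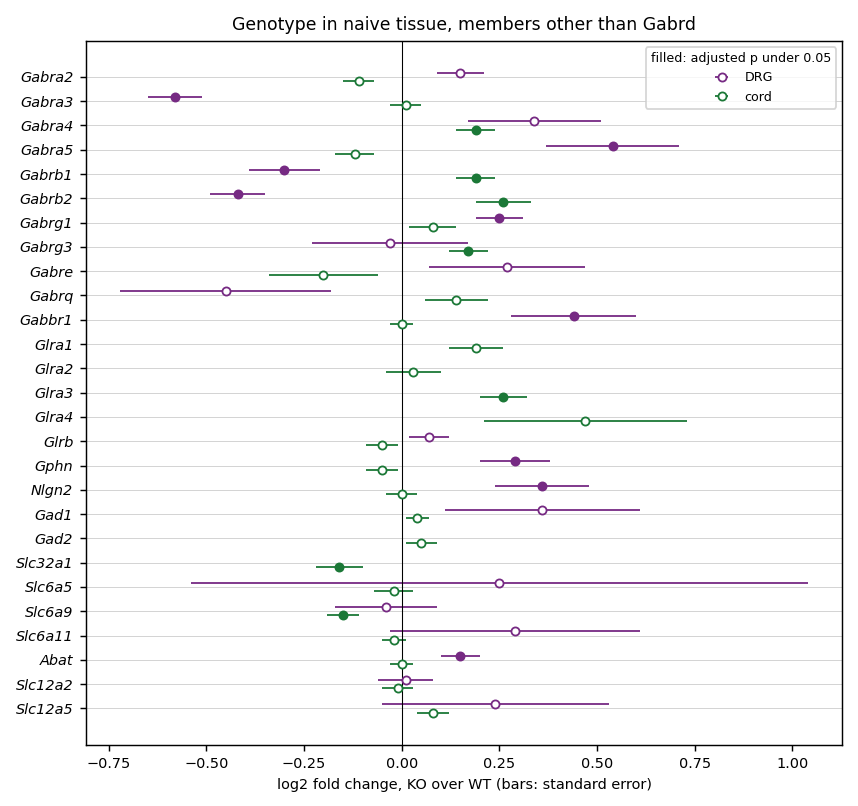
Log2 fold change of KO over WT in naive ganglia (purple) and naive cords (green) with standard errors, for the genes other than Gabrd that were tested. Filled points have an edgeR adjusted p under 0.05. The called genes of cord lie between -0.16 and 0.26, while Gabra3 and Gabrb2 lie furthest to the left among those of ganglia.

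The responses of cord and ganglion to injury were compared directly in WT. Of 28 genes 7 had a higher and 5 a lower log2 change in cord than in ganglion, where 12.5% of all 20626 genes tested were called, 6.92% higher and 5.59% lower. The median difference was 0.08 over the 28 genes and 0.03 over all genes. The cord minus ganglion difference was 1.09 (SE 0.11, edgeR adjusted p = 6.54e-09) for Gabrb2, 0.66 (SE 0.08, edgeR adjusted p = 1.38e-07) for Gabra3, 0.30 (SE 0.08, edgeR adjusted p = 0.0108) for Gabra2 and 0.32 (SE 0.07, edgeR adjusted p = 0.000633) for Glrb, all of which had fallen in ganglia. It was -0.85 (SE 0.09, edgeR adjusted p = 2.64e-08) for Gabrg1 and -0.52 (SE 0.14, edgeR adjusted p = 0.00817) for Nlgn2, which had risen in WT ganglia. In WT cord the log2 changes of Gabrb2, Gabra3, Gabra2, Gabrg1 and Nlgn2 were between -0.04 and 0.04 and none was called. Gabra4, Gabrq and Gabra5 lost the call in 30, 27 and 13 of 43 alternatives, and Gabrb1, not called, gained one in 25. With a replicate block by the number that ganglion and cord libraries share, Gabra4, Gabra5, Gabrq and Slc6a9 were not called.

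Genes that work beside this set were read from a list of 36 others. In ganglia after SNI 5 of 33 tested were called higher and 4 lower in KO, and 5 higher and 6 lower in WT, shares near the 28.5% and 24.9% of all genes called in KO and in WT. Slitrk3, an adhesion protein of inhibitory synapses, fell by 0.84 on the log2 scale in KO and by 0.79 in WT (edgeR adjusted p = 7.31e-07 and 1.72e-06). Mdga1, which binds the neuroligin encoded by Nlgn2 and blocks its pairing, rose by 0.99 in KO and by 1.03 in WT (edgeR adjusted p = 0.000936 and 0.0008). Shmt2, a mitochondrial enzyme that makes glycine from serine, rose by 0.40 and 0.55 in KO and WT (edgeR adjusted p = 0.000186 and 6.97e-06). Kctd12, an auxiliary subunit of GABA-B receptors, rose by 0.72 in KO and 0.51 in WT ganglia, and by 0.34 in KO and 0.36 in WT cords. Its edgeR adjusted p was 0.00149 and 0.0163 in KO and WT ganglia and 7.79e-06 and 3.75e-06 in KO and WT cords. In cord after SNI 3 of 34 were called higher and 1 lower in KO, and 1 higher and 1 lower in WT, where 4.42% and 2.88% of all genes were called in KO and in WT.

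In naive KO ganglia 8 of the 33 were higher and 6 lower, and in naive KO cords 5 of 34 were higher and 4 lower, where 28.2% of all genes were called in naive ganglia and 19.7% in naive cords. Slc12a7, another chloride exporter, was higher in KO by 0.37 (SE 0.06, edgeR adjusted p = 0.000201) in naive ganglia and by 0.45 (SE 0.06, edgeR adjusted p = 0.000189) in SNI ganglia. Stk39, a kinase that acts on chloride cotransporters, was lower in KO naive cords than in WT naive cords, with a log2 difference of -0.26 (SE 0.04, edgeR adjusted p = 0.000213). Shisa7, an accessory protein of GABA receptors, was higher there by 0.28 (SE 0.05, edgeR adjusted p = 0.000947).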

How the data were processed

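Per the labels' protocols, the libraries were stranded and of messenger RNA (TruSeq). The submitters' processing notes name FastQC 0.11.5, HISAT2, RSEM and build GRCm38. The role of each tool, the annotation and the use of strand were not stated there. The deposited raw table held expected counts for 55487 genes. In its E1 column, deposited with 9150 cells in decimal commas (unit recorded as other), commas were read as points, and 1 cell holding a letter was restored to 1780.86 from the other table. The deposited normalised table held signal values, the raw column times 1 TMM factor, and served as an alternative only.

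Expected counts were rounded. Each tissue was fitted with edgeR 4.0.16 (18 libraries, 4 groups, 14 residual degrees of freedom, TMM, filterByExpr, robust quasi-likelihood F tests), and tissues were compared in a fit of 36 libraries (28 residual degrees of freedom). A gene was called where its p, adjusted by Benjamini-Hochberg across the genes tested, was under 0.05. These numbered 19496 in ganglia, 18843 in cord and 20626 in both. SE is the log2 change over the square root of F. CPM used TMM over all 36 libraries, and RPKM divides CPM by union exon length (GENCODE M21). Library values are given in the order of the library names, and ranges of reads are as deposited. Alternatives were DESeq2 1.42.0, its size factors, no filter, limma 3.58.1 on log2(normalised value + 1), fits without A2 and A4, with only the groups compared, with the letter of the title as a term, with a replicate block for tissues, and without each library. Simulated counts were used to try only the comparison of SNI with naive WT libraries in each tissue. The outcome is not given here.

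The genes and lists were chosen with earlier results of these data known. Every kept gene is described, and of the other lists up to 3 genes each. Genes called in a comparison other than between tissues have values per library, though not for every call. Gabrg3 and Gabrd are given by ranges or read totals instead. Promoter sequences are from RefSeq on GRCm38.p6. No proteins were used here, and the targeted gene is not reported here. Depth of 21.34 to 27.27 M reads leaves genes under about 20 reads per library imprecise.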

Additional observations from a re-analysis of the deposited data

Results flagged for a closer look

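The response to SNI was called different between cord and ganglion in WT for 12 of the 28 genes, by the test of the difference itself in the fit of 36 libraries. That fit has no replicate block, and with a block by the shared number Gabra4, Gabra5, Gabrq and Slc6a9 were not called. As cord minus ganglion on the log2 scale, the difference was 0.30 (SE 0.08, edgeR adjusted p = 0.0108) for Gabra2, 0.66 (SE 0.08, edgeR adjusted p = 1.38e-07) for Gabra3 and 0.51 (SE 0.17, edgeR adjusted p = 0.0393) for Gabra4. It was 1.09 (SE 0.11, edgeR adjusted p = 6.54e-09) for Gabrb2, 1.91 (SE 0.48, edgeR adjusted p = 0.00543) for Gabrd, 0.83 (SE 0.26, edgeR adjusted p = 0.0452) for Gabrq and 0.32 (SE 0.07, edgeR adjusted p = 0.000633) for Glrb. It was negative for Gabra5 at -0.53 (SE 0.18, edgeR adjusted p = 0.0445, lost in 13 of 43 alternatives), for Gabrg1 at -0.85 (SE 0.09, edgeR adjusted p = 2.64e-08), for Nlgn2 at -0.52 (SE 0.14, edgeR adjusted p = 0.00817) and for Slc6a9 at -0.43 (SE 0.12, edgeR adjusted p = 0.015). For Gad2 it was -1.58 (SE 0.34, edgeR adjusted p = 0.00102), with 5 to 17 reads per WT SNI ganglion and 2 to 6 per WT naive ganglion behind it.

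Among 192 groups of 4 or 5 libraries, 8 had a library whose gap to the nearest other was large against the range of the group, where chance alone flags about 1 in 20. In ganglia these were Gabra2 and Gabrg1 in KO naive library A2, with 118 and 56.1 CPM, Gabrb2 in WT SNI library F3 with 7.72 CPM and Slc6a5 in KO SNI library F2 with 3.98 CPM. In cord they were Gabra2 in KO naive library B6 with 185 CPM, Gad1 in KO naive library C6 with 256 CPM, and Gabra3 in KO SNI library F6 and Gabrg3 in KO SNI library F8, with 211 and 25.0 CPM.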

How the results depend on the processing

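No call on a gene of the set reversed: over all called genes and alternatives, 2532 kept the call and 195 lost it with the same direction. The number of genes called in KO against WT naive ganglia, 10, was 4 without A2 and A4, and ran between 3 and 11 when single libraries were left out. That in KO against WT SNI ganglia, 3, was 1 with only the groups compared, and 1 to 4 over single libraries left out. The 4 calls after SNI in WT cord were 8 by DESeq2, 7 by limma, 2 with only the groups compared and 1 to 4 over single libraries left out. The 2 calls in KO against WT SNI cords were 1 without the filter and 0 to 2 over single libraries left out. All other counts stayed within 1.5 times their value, with 9 to 11 for KO and 7 to 11 for WT ganglia after SNI, 5 to 8 for naive cords, 26 to 27 between tissues and 9 to 13 for the tissue difference of the response when single libraries were left out. These counts are not set beside the share of all genes called in the same fit. A change in this set and a fit that calls more or fewer genes throughout are thus not told apart. The causes were not tested.

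Column names give the ganglion and cord libraries shared numbers, and deviations from group means correlated at 0.02 to 0.299 over 18 such pairs, 14 of them over 0.1. Each library was set against the 4 or 5 of the other tissue with its genotype and injury. Of the 36 libraries, 29 correlated best with the library of their own number there, which points to pairing. In 4 pairs the correlation did not pass 0.1, and the labels do not say what the number marks. The fits reported have no block, so their tests between tissues leave out any such pairing. A replicate block by this number left the comparison of tissues at 26 calls and, in a fit added after the data were seen, the tissue difference of the response at 8 of 12 calls, without Gabra4, Gabra5, Gabrq and Slc6a9. The same numbers recur in the column names of KO and WT and of naive and SNI libraries. The labels do not say whether they pair libraries there, and no block by number was fitted within a tissue. Depth limits what can be said of Gabrd, Gad1, Gad2, Slc32a1, Slc6a5, Slc6a11 and the glycine receptor alpha subunits in ganglia, where a few reads set each value.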

Other observations

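The 4 WT SNI ganglia fell into pairs for several genes of the set, a pattern noticed after the values were seen. Libraries E1 and F1 lay above E3 and F3 for Gabbr1 (283, 161, 285 and 166 CPM in E1, E3, F1 and F3), for Nlgn2 (94.8, 65.2, 81 and 60.6 CPM), for Gphn (38.4, 31, 38.3 and 31.4 CPM) and for Slc12a2 (209, 159, 203 and 168 CPM). In the same order the sensory neuron markers summed to 4305, 3345, 4057 and 3058 CPM and the microglia and macrophage markers to 264.7, 437.9, 327.1 and 404.5 CPM. In KO SNI ganglia E2 and F2 likewise lay above E4 and F4 for Nlgn2 (86.3, 76.5, 78.7 and 71.3 CPM in E2, E4, F2 and F4) and below them for the microglia and macrophage sum (236.8, 281.6, 240.9 and 296.3 CPM). The other 3 genes did not split this way there, with 287, 278, 263 and 239 CPM of Gabbr1, 39.1, 41.3, 36.2 and 36.3 CPM of Gphn and 192, 204, 218 and 193 CPM of Slc12a2, nor did the sensory neuron sum, with 4318, 4144, 4032 and 3579 CPM.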
